A study of Homo sapiens with 4 samples.

Results

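The voltage-gated sodium and calcium channel genes were described in SK-N-BE(2) cells, a human neuroblastoma line, after a short hairpin RNA against TTC8. The genes were selected on their symbols alone: the pore-forming and beta subunits of sodium channels (SCN, a number, then A or B), and the calcium channel subunits and their relatives whose symbols begin with CACNA1, CACNA2D, CACNB or CACNG. Antisense genes and the SCNN1 family were not taken. The rule found 40 protein-coding genes among the 64252 gene IDs of the table. The family itself was chosen with fold changes of shTTC8 over shScb in these libraries known, so counts over it are descriptions.

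RNA-seq was made from 4 libraries, 2 of cells transfected with a hairpin against TTC8 (shTTC8) and 2 of cells transfected with a scrambled hairpin (shScb, given as the control genotype). All 4 came from the same line. No animal, time point, drug or sorted population is named in the labels. Neither the hairpin's sequence nor how many hairpins were used is stated in the labels, so a TTC8 effect and an off-target effect of a hairpin cannot be told apart. Nothing in the labels ties a replicate to its own culture, and the p-values therefore measure only the spread between these libraries, which may be technical.

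TTC8, the targeted gene and a subunit of the BBSome, the ciliary coat complex, had 1130 and 1268 counts in the shTTC8 libraries, against 9888 and 10398 in the shScb libraries. The groups did not overlap, and the level was 0.154 of that in shScb (log2 fold change -2.70 ± 0.07 SE, edgeR adjusted p = 5.38e-12). Library totals were 38284663 and 40863047 counts in shTTC8, against 51168727 and 55331449 in shScb. Levels below are in CPM, the gene's counts over the library size as scaled by TMM, a method that sets the bulk of genes equal between libraries. A gene was called at a Benjamini-Hochberg adjusted p under 0.05 over all 19610 tested genes, by edgeR's quasi-likelihood test.

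Voltage-gated sodium channels open on depolarisation and carry the upstroke of the action potential. Each has a large pore-forming alpha subunit and smaller beta subunits that tune its gating and anchor it at the membrane. Voltage-gated calcium channels let calcium in on depolarisation and couple electrical activity to secretion, contraction and transcription. Their alpha1 subunit forms the pore, while alpha2delta and beta subunits bring it to the surface. The gamma family is mixed: CACNG1 and CACNG6 belong to muscle-type calcium channels, and the others, CACNG5 included, are known mainly as auxiliary subunits of AMPA-type glutamate receptors, the TARPs. Neuroblastoma arises from the sympathetic lineage, whose neurons fire action potentials and release catecholamines through calcium entry.

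Promoter windows are shown for 6 of the called genes, to give examples of AT-rich windows (SCN1A, SCN2A and SCN2B) and GC-rich windows (CACNA1B, CACNA2D1 and CACNA2D3), picked after their values were seen. Of the called genes with a window above the median GC content of all windows, 4 rose (CACNA1B, CACNA2D2, CACNB1 and CACNB2) and 2 fell. The 3 with a window below that median rose. Other called genes, among them CACNA1G, CACNG4, CACNG7 and CACNG8, had no window, and the part of GC content was not tested. RefSeq (GRCh38.p14) gave a window of 250 bases before and 50 bases after the gene start for 26 of the 40 genes. Those without one included CACNA1G, CACNA1H, CACNA2D4, CACNG1, CACNG2, CACNG4, CACNG5, CACNG7, CACNG8, SCN3A, SCN3B and SCN4A. In the windows of SCN1A (chr2:166127971-166128270, minus strand) and SCN2A (chr2:165239164-165239463, plus strand), capitals mark the 50 bases most alike between them.
SCN1A: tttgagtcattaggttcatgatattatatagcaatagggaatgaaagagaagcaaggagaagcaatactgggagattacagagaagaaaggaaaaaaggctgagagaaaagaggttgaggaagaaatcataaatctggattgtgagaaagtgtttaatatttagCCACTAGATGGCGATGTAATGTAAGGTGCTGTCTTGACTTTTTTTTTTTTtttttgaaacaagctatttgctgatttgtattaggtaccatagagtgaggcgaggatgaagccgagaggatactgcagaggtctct
SCN2A: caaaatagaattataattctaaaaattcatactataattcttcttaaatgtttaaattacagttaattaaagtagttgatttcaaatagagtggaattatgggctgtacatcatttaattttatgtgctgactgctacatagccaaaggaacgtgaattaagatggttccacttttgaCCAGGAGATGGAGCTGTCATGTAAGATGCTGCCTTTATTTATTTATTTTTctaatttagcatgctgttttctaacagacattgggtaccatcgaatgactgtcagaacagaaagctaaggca
These 50 bases matched at 39 positions without a gap, the most of any of the 325 pairs of the 26 windows, whose median was 27. Relative to the gene start, the stretch began at position -86 in SCN1A and at position -72 in SCN2A. The next pair, CACNA1B and SCN8A, pores of different channel types with GC-rich windows, matched at 38 positions over its own best 50 bases. Such likeness is a description of sequence and names no binding factor. The pair of SCN1A and SCN2A was compared after the windows had been seen. Both windows lie inside the longer spans that GENCODE gives these genes, whose first starts are further upstream.

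In the windows of SCN2B (chr11:118176590-118176889, minus strand), CACNA1B (chr9:137877532-137877831, plus strand), CACNA2D1 (chr7:82443907-82444206, minus strand) and CACNA2D3 (chr3:54122302-54122601, plus strand), capitals mark motif matches, searched on both strands.
SCN2B: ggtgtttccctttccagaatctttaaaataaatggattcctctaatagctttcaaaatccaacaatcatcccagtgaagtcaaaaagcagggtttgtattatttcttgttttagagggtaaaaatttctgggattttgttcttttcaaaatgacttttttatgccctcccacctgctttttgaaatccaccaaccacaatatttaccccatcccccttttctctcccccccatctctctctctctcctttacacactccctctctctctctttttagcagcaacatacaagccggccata
CACNA1B: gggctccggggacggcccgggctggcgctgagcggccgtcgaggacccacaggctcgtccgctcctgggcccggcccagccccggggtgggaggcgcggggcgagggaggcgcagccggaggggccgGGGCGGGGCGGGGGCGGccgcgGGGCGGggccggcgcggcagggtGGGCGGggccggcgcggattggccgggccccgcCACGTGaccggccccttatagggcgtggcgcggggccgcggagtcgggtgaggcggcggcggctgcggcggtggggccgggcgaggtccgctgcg
CACNA2D1: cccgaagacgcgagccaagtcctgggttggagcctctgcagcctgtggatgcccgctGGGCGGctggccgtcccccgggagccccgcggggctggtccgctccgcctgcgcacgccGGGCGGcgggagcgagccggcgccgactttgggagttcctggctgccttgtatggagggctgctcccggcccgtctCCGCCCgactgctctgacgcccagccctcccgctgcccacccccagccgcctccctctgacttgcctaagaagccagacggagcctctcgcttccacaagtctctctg
CACNA2D3: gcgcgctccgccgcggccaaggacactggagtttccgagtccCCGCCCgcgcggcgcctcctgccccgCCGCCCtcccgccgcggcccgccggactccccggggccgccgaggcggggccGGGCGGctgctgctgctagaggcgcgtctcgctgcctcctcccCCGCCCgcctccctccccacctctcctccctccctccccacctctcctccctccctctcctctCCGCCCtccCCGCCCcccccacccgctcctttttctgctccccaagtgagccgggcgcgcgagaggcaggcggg
The GC box, searched as GGGCGG, was found in 17 of the 26 windows and in 44.6% of all 27305 promoter windows of the same length. CACNA1B held 5 of them, CACNA2D1 held 3 and CACNA2D3 held 6, while SCN1A, SCN2A and SCN2B held none. The E-box, CACGTG, which MYC proteins can bind, was found in the windows of CACNA1B and CACNA1I and in 7.44% of all windows. The TATA motif TATAAA was found in the window of SCN10A and in 12.0% of all. The left part of the RE1 element bound by the repressor REST, TTCAGCACC, was found in the window of CACNG3 and in 0.403% of all. The right part, GGACAGCGC, was found in no channel window and in 0.645% of all. Only exact matches within these windows were searched, so the search cannot show that a gene lacks a motif. Among the channel windows no match overlapped a match of another motif, and neighbouring GC boxes shared at most 2 bases. GC content was 37.0% in the window of SCN1A, 31.7% in that of SCN2A and 39.7% in that of SCN2B. It was 85.3% in CACNA1B, 72.3% in CACNA2D1 and 79.0% in CACNA2D3, against a median of 65.2% over the 26 channel windows and 58.3% over all windows.

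Of the 40 channel genes, 31 passed the filter on low counts, 11 rose in shTTC8, 5 fell and 15 were not called. Among the genes that rose in shTTC8 were SCN1A, SCN2A, SCN2B, SCN3B, CACNA1B, CACNA2D2, CACNB1, CACNB2, CACNG7 and CACNG8. The genes that fell were CACNA1G, CACNA2D1, CACNA2D3, CACNG1 and CACNG4. Called genes made up 51.6% of the tested channel genes, beside 31.9% of all tested genes and 39.2% of tested protein-coding genes. By direction, 15.2% of all tested genes were called higher and 16.7% lower. The libraries of the 2 groups did not overlap for 28 of the 31 channel genes, with 17 higher and 11 lower in shTTC8, beside 65.5% of all tested genes. Because the family was chosen on this same comparison, nothing is read from these shares or from the counts by subunit class below. The median log2 fold change of the tested channel genes was 0.22, against 0.00 over all tested genes. Calls of at least 2-fold included SCN1A, SCN2B and CACNG8 among the rises, and CACNA1G, CACNG1 and CACNG4 among the falls. In bulk RNA, fewer cells of a type and less RNA per cell cannot be told apart.

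**Figure D1:**
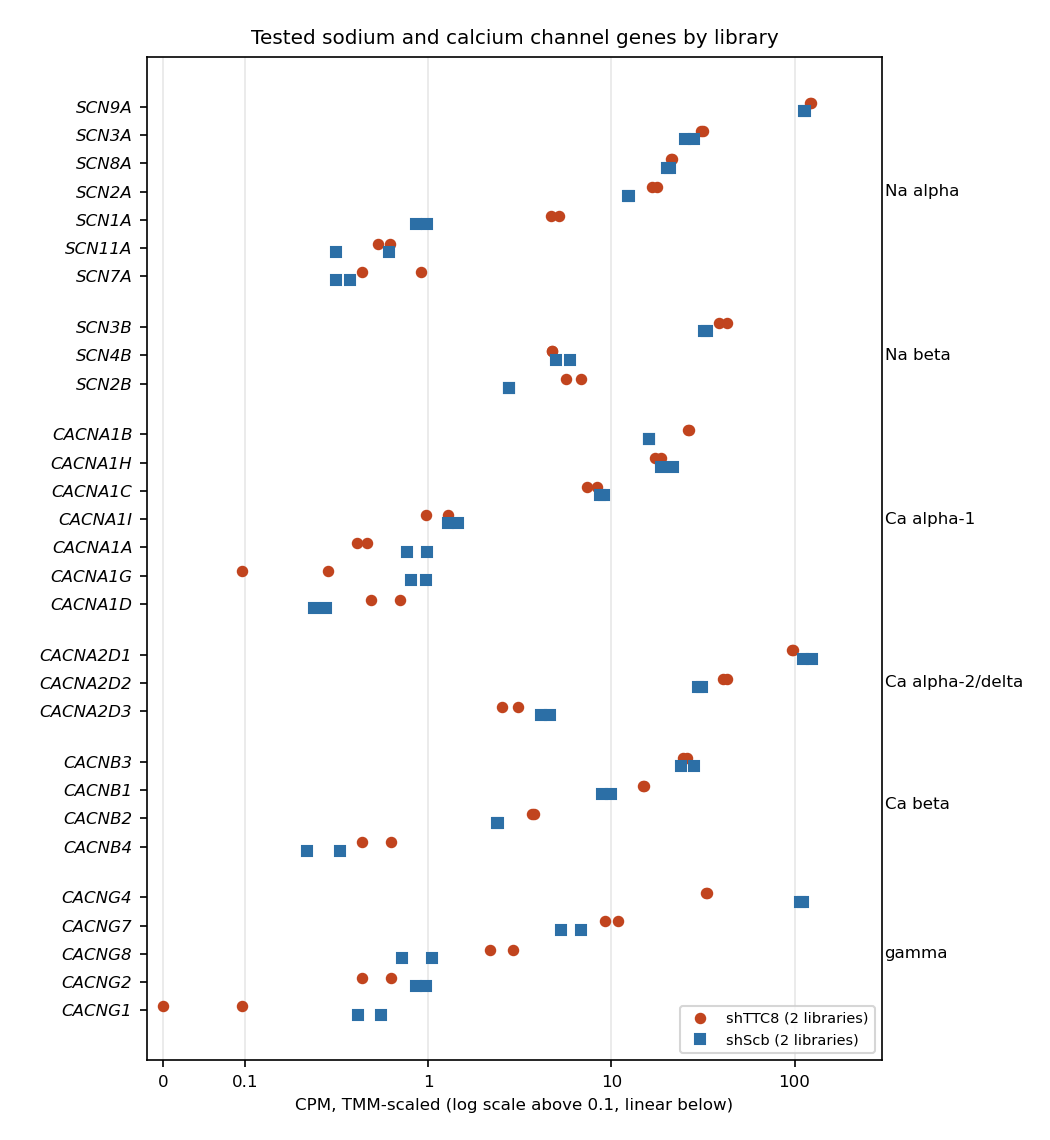
Level of 29 of the 31 tested channel genes in every library, in CPM on an axis that is logarithmic above 0.1 and linear below, with the 2 shTTC8 libraries as circles and the 2 shScb libraries as squares, grouped by subunit class. The marks of the groups lie furthest apart for CACNG4 (33.1 against 110 CPM) among abundant genes, and for SCN1A (4.94 against 0.927 CPM) among those of middle level.

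**Figure D2:**
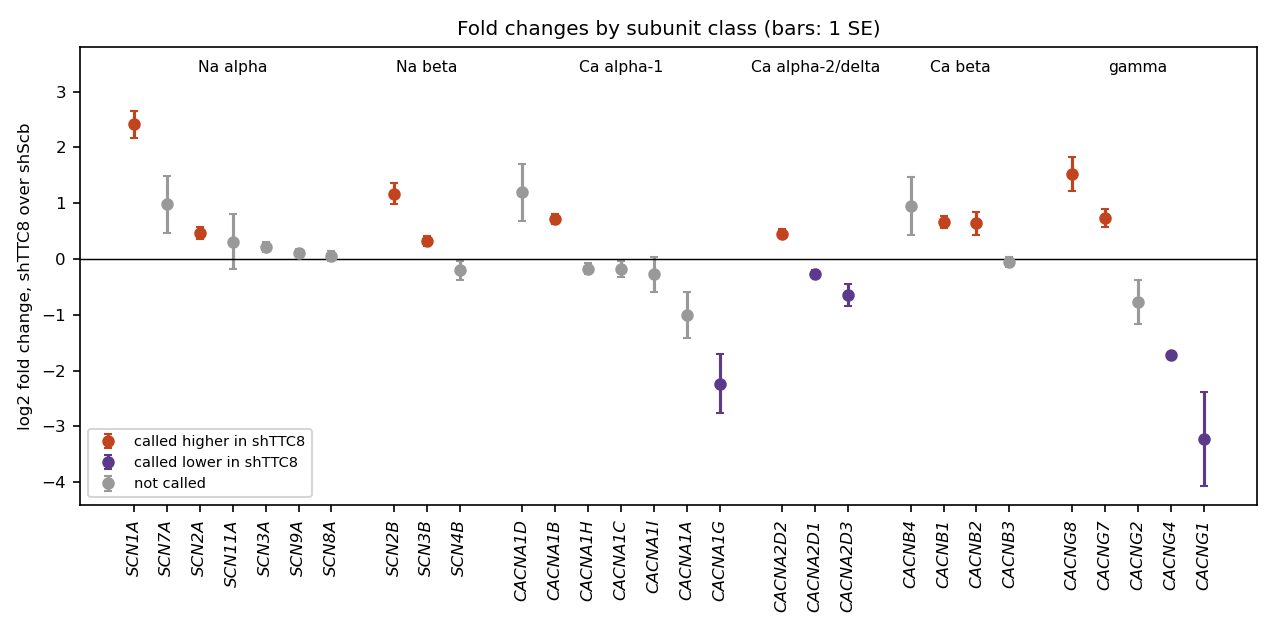
Log2 fold change of shTTC8 over shScb for 29 of the 31 tested channel genes, by subunit class, with bars of 1 SE and colours for the call at adjusted p under 0.05. SCN1A stands highest at 2.41 and CACNG1 lowest at -3.22.

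Among the sodium channel alpha genes, which encode the pores, SCN1A and SCN2A rose in shTTC8. SCN1A, the pore called Nav1.1, had 183 and 214 counts in shTTC8, against 50 and 47 in shScb. Both shTTC8 libraries lay above both shScb libraries, although the shTTC8 libraries were the shallower. Its level was 4.94 ± 0.324 CPM in shTTC8 and 0.927 ± 0.088 CPM in shScb (SD, n = 2 each), a 5.32-fold difference (log2 fold change 2.41 ± 0.24 SE, edgeR adjusted p = 2.62e-06). SCN1A lies on the minus strand of chromosome 2 (GENCODE, hg38: chr2:165984641-166149214), and an antisense gene over its exons had 8.10% of its counts.

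SCN2A, or Nav1.2, had 17.7 and 16.7 CPM in shTTC8, against 12.5 and 12.3 CPM in shScb. All shTTC8 values were higher, and the difference was 1.39-fold (log2 fold change 0.47 ± 0.10 SE, edgeR adjusted p = 0.00295). SCN9A, or Nav1.7, the most abundant sodium channel pore per transcript length in both groups, had 123 and 121 CPM in shTTC8, against 113 and 112 CPM in shScb. The groups did not overlap, but the log2 fold change of 0.11 ± 0.06 SE was not called (edgeR adjusted p = 0.163). SCN3A, or Nav1.3, which is best known from the embryonic brain, averaged 31.3 ± 0.703 CPM in shTTC8 and 26.8 ± 2.14 CPM in shScb (log2 fold change 0.22 ± 0.09 SE, edgeR adjusted p = 0.0725). With an offset for transcript GC content and length, both SCN9A (edgeR adjusted p = 0.00093) and SCN3A (0.00118) were called higher.

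SCN8A, or Nav1.6, averaged 21.3 ± 0.0605 CPM in shTTC8 and 20.6 ± 0.624 CPM in shScb (log2 fold change 0.05, edgeR adjusted p = 0.715). The sensory neuron pore SCN11A had 24 and 22 counts in shTTC8 and 31 and 17 in shScb, and SCN7A, which encodes a sodium-sensing relative, had 17 and 38 counts in shTTC8 and 19 and 17 in shScb. Neither was called.

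SCN10A and SCN4A were below the filter. SCN10A, the Nav1.8 pore of pain-sensing neurons, had 5 counts in each shTTC8 library and 0 in each shScb library. Taking 3 counts over the shScb group, the limit that 0 allows, and the shTTC8 counts as exact, the lower bound on its fold of shTTC8 over shScb was 4.36. That value leaves out the counting error of the shTTC8 libraries, and the gene was not called when no filter was used. SCN4A, the skeletal muscle pore, had 0 counts in both shTTC8 libraries and 0 and 2 in shScb.

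Among the sodium channel beta genes, which encode single-pass partners of the pore, SCN3B and SCN2B rose in shTTC8 and SCN4B was not called. SCN3B was the most abundant of the class, at 38.9 and 43.0 CPM in shTTC8, against 33.3 and 32.0 CPM in shScb. Each shTTC8 library was higher, by 1.25-fold on average (log2 fold change 0.33 ± 0.08 SE, edgeR adjusted p = 0.00793). The call ended without shTTC8 replicate 2 (edgeR adjusted p = 0.136).

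SCN2B had 264 and 233 counts in shTTC8, against 140 and 150 in shScb. The groups were well apart at 6.21 ± 0.826 CPM in shTTC8 and 2.76 ± 0.00701 CPM in shScb (log2 fold change 1.17 ± 0.19 SE, edgeR adjusted p = 2.45e-04). SCN4B, its neighbour on chromosome 11, averaged 4.75 ± 0.0155 CPM in shTTC8 and 5.46 ± 0.65 CPM in shScb and stayed uncalled (log2 fold change -0.20, edgeR adjusted p = 0.418).

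Of the 10 calcium channel alpha1 genes, 7 were tested, 1 rose, 1 fell and 5 were not called, where 31.9% of all tested genes were called. CACNA1B, the N-type pore Cav2.2 that triggers transmitter release in sympathetic neurons, had 26.1 and 26.6 CPM in shTTC8, against 16.06 and 16.02 CPM in shScb. Libraries within a group differed by less than 0.5 CPM, and the groups by 1.64-fold (log2 fold change 0.72 ± 0.09 SE, edgeR adjusted p = 3.06e-05). CACNA1G, the T-type pore Cav3.1, had 11 and 4 counts in shTTC8, against 41 and 53 in shScb. The groups did not overlap (log2 fold change -2.23 ± 0.53 SE, edgeR adjusted p = 0.00492). The log2 fold change was -3.18 without shTTC8 replicate 1 and -1.65 without shTTC8 replicate 2, and the gene stayed called in both cases.

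CACNA1H, the T-type pore Cav3.2, averaged 17.9 ± 0.984 CPM in shTTC8 and 20.2 ± 2.28 CPM in shScb and stayed uncalled (log2 fold change -0.17 ± 0.11 SE, edgeR adjusted p = 0.249), although it was called lower with the GC and length offset (0.0303). CACNA1C, the L-type pore Cav1.2, averaged 7.85 ± 0.653 CPM in shTTC8 and 8.89 ± 0.38 CPM in shScb (log2 fold change -0.18, edgeR adjusted p = 0.363). It shares 84 exonic bases, 0.440% of its exon length, with the antisense gene CACNA1C-AS2, which had 10.5% of its counts. The CACNA1H libraries overlapped between the groups, and those of CACNA1C did not.

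The sparse alpha1 genes were not called either. CACNA1A, the P/Q-type pore Cav2.1, had 18 and 17 counts in shTTC8 and 50 and 42 in shScb (log2 fold change -1.01 ± 0.41 SE, edgeR adjusted p = 0.0798). CACNA1D, the L-type pore Cav1.3, had 19 and 29 counts in shTTC8 and 14 and 13 in shScb (1.20 ± 0.51 SE, edgeR adjusted p = 0.0903), and shares exonic bases with CHDH, a gene with 209% of its counts. The T-type pore CACNA1I had 38 and 53 counts in shTTC8 and 65 and 79 in shScb (log2 fold change -0.28, edgeR adjusted p = 0.547). All 3 had libraries that did not overlap between the groups, as did 65.5% of all tested genes. The nearest CACNA1I libraries were at 1.28 CPM in shTTC8 and 1.29 CPM in shScb.

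Below the filter were CACNA1F, the retinal L-type pore, with 6 and 2 counts in shTTC8 and 3 and 8 in shScb, and CACNA1S, the skeletal muscle pore, with 0 in both shTTC8 libraries and 0 and 7 in shScb. CACNA1E, the R-type pore, had 0 counts in every library.

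Of the 4 alpha2delta genes, 3 were tested and all were called, 1 higher and 2 lower, where 31.9% of all tested genes were called. These extracellular subunits bind the drug gabapentin in the case of the CACNA2D1 and CACNA2D2 products. CACNA2D1 had 97.2 and 98.7 CPM in shTTC8, against 124 and 111 CPM in shScb. Both shTTC8 libraries were lower, at 0.832 of the shScb level (log2 fold change -0.26 ± 0.07 SE, edgeR adjusted p = 0.00697). Leaving out shTTC8 replicate 1 ended the call (edgeR adjusted p = 0.0718), and the offset for GC content and length moved the log2 fold change to -0.08 (0.14).

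CACNA2D2 went the other way, at 42.6 and 40.8 CPM in shTTC8, against 31.2 and 29.6 CPM in shScb. The groups were apart by 1.37-fold (log2 fold change 0.46 ± 0.08 SE, edgeR adjusted p = 5.94e-04). CACNA2D3 had 98 and 128 counts in shTTC8, against 234 and 226 in shScb, and was lower in both shTTC8 libraries (log2 fold change -0.64 ± 0.20 SE, edgeR adjusted p = 0.0258). That call was lost without shTTC8 replicate 1 (0.177) or shScb replicate 1 (0.0999) and with DESeq2 (DESeq2 adjusted p = 0.085). CACNA2D4, below the filter, had 4 and 15 counts in shTTC8 and 6 and 8 in shScb.

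All 4 calcium channel beta genes, which encode the cytoplasmic subunits, were tested. Of these, 2 rose and 2 were not called, where 31.9% of all tested genes were called. CACNB1 had 15.04 and 14.83 CPM in shTTC8, against 8.92 and 9.94 CPM in shScb. All shTTC8 values were higher, by 1.58-fold (log2 fold change 0.66 ± 0.12 SE, edgeR adjusted p = 4.68e-04). CACNB2 had 147 and 153 counts in shTTC8, against 121 and 131 in shScb, or 1.56-fold after scaling (log2 fold change 0.64 ± 0.21 SE, edgeR adjusted p = 0.0316). Among the 16 called genes CACNB2 lost its call in the most alternatives: on leaving out any 1 library (edgeR adjusted p from 0.0678 to 0.125), with no filter (0.0596), after thinning to equal depth (0.0601), and with DESeq2 (DESeq2 adjusted p = 0.127). An antisense gene over its exons had 72.8% of its counts.

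CACNB3, the most abundant beta gene, averaged 25.3 ± 0.874 CPM in shTTC8 and 26.2 ± 3.01 CPM in shScb (log2 fold change -0.05, edgeR adjusted p = 0.735). Its direction turned without shScb replicate 2. CACNB4 had 17 and 26 counts in shTTC8 and 11 and 18 in shScb and stayed uncalled (log2 fold change 0.95 ± 0.53 SE, edgeR adjusted p = 0.197). Of the 50-base stretches of its longest transcript, 13.3% also occur in transcripts of another gene, so its counts are uncertain.

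Of the 8 gamma genes, 5 were tested, 2 rose, 2 fell and 1 was not called, where 31.9% of all tested genes were called. CACNG4, which encodes the TARP gamma-4, had 1282 and 1378 counts in shTTC8, against 5650 and 5846 in shScb. Each shTTC8 library lay far below each shScb library. Its level was 33.1 ± 0.201 CPM in shTTC8 and 110 ± 2.98 CPM in shScb (SD, n = 2 each), or 0.302 of the shScb level (log2 fold change -1.73 ± 0.07 SE, edgeR adjusted p = 4.56e-10). This was the smallest adjusted p of the 31 tested channel genes, and the call held under every alternative run.

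CACNG1, a subunit of the skeletal muscle channel, had 0 and 4 counts in shTTC8, against 21 and 30 in shScb. The groups did not overlap (log2 fold change -3.22 ± 0.85 SE, edgeR adjusted p = 0.00892). Without shTTC8 replicate 1 the call was lost (log2 fold change -2.30, edgeR adjusted p = 0.0611), and without shTTC8 replicate 2 the other shTTC8 library stood at 0 counts. CACNG5, below the filter, had 0 counts in both shTTC8 libraries and 4 and 9 in shScb. With 3 counts over the shTTC8 group, and the shScb counts taken as exact, the lower bound on its fold of shScb over shTTC8 was 3.31. That bound leaves out the counting error of the shScb libraries, and CACNG5 was not called when no filter was used.

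CACNG7 and CACNG8 rose. CACNG7 had 10.9 and 9.28 CPM in shTTC8, against 6.81 and 5.32 CPM in shScb, without overlap (log2 fold change 0.73 ± 0.16 SE, edgeR adjusted p = 0.00246). CACNG8 had 85 and 120 counts in shTTC8, against 53 and 39 in shScb. The CACNG8 libraries were apart by 2.88-fold (log2 fold change 1.53 ± 0.30 SE, edgeR adjusted p = 0.00128). CACNG2, which encodes stargazin, had 17 and 26 counts in shTTC8 and 49 and 47 in shScb and stayed uncalled (log2 fold change -0.78 ± 0.40 SE, edgeR adjusted p = 0.159). CACNG3 and CACNG6 had 0 counts in every library.

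Summed over the 40 genes, the channel transcripts came to 548 and 543 CPM in shTTC8, against 591 and 573 CPM in shScb. Without CACNG4 the sums were 515 and 510 CPM in shTTC8, against 480 and 465 CPM in shScb, so the order of the groups turned on that gene. By class the gamma sums differed most, at 46.5 and 46.2 CPM in shTTC8, against 121 and 115 CPM in shScb. The sodium beta sums were 51.0 and 53.8 CPM in shTTC8, against 41.2 and 40.8 CPM in shScb. The alpha2delta sums stayed near each other, at 142 and 143 CPM in shTTC8, against 160 and 145 CPM in shScb.

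Levels can be set against each other only per length, here as CPM per kilobase of the longest annotated transcript. In shTTC8 the order was CACNA2D1 at 12.9, SCN9A at 12.5, CACNG4 at 9.81, CACNA2D2 at 7.61 and SCN3B at 6.75 CPM per kilobase. In shScb it was CACNG4 at 32.4, CACNA2D1 at 15.6, SCN9A at 11.6, CACNB3 at 6.51 and CACNA2D2 at 5.55 CPM per kilobase. On this length CACNG4 stood behind CACNA2D1 and SCN9A in shTTC8 and ahead of both in shScb. Per kilobase of all annotated exons the order in shTTC8 differed, with CACNA2D1 at 10.9, CACNG4 at 9.81 and SCN9A at 8.89, while in shScb it was again CACNG4 at 32.4, CACNA2D1 at 13.1 and SCN9A at 8.22.

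The make-up of some classes differed with them. CACNA1B made up 47.0% of the summed alpha1 level per length in shTTC8 and 31.8% in shScb, and CACNA1H made up 38.1% in shTTC8 and 47.5% in shScb. The leading pore of the class was CACNA1B in both shTTC8 libraries and CACNA1H in both shScb libraries. CACNG4 made up 69.5% of the gamma class in shTTC8 and 91.0% in shScb, and CACNG7 made up 26.5% in shTTC8 and 6.31% in shScb. SCN9A held its class more evenly, at 60.6% of the alpha level in shTTC8 and 62.2% in shScb. These shares carry no test.

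**Figure D3:**
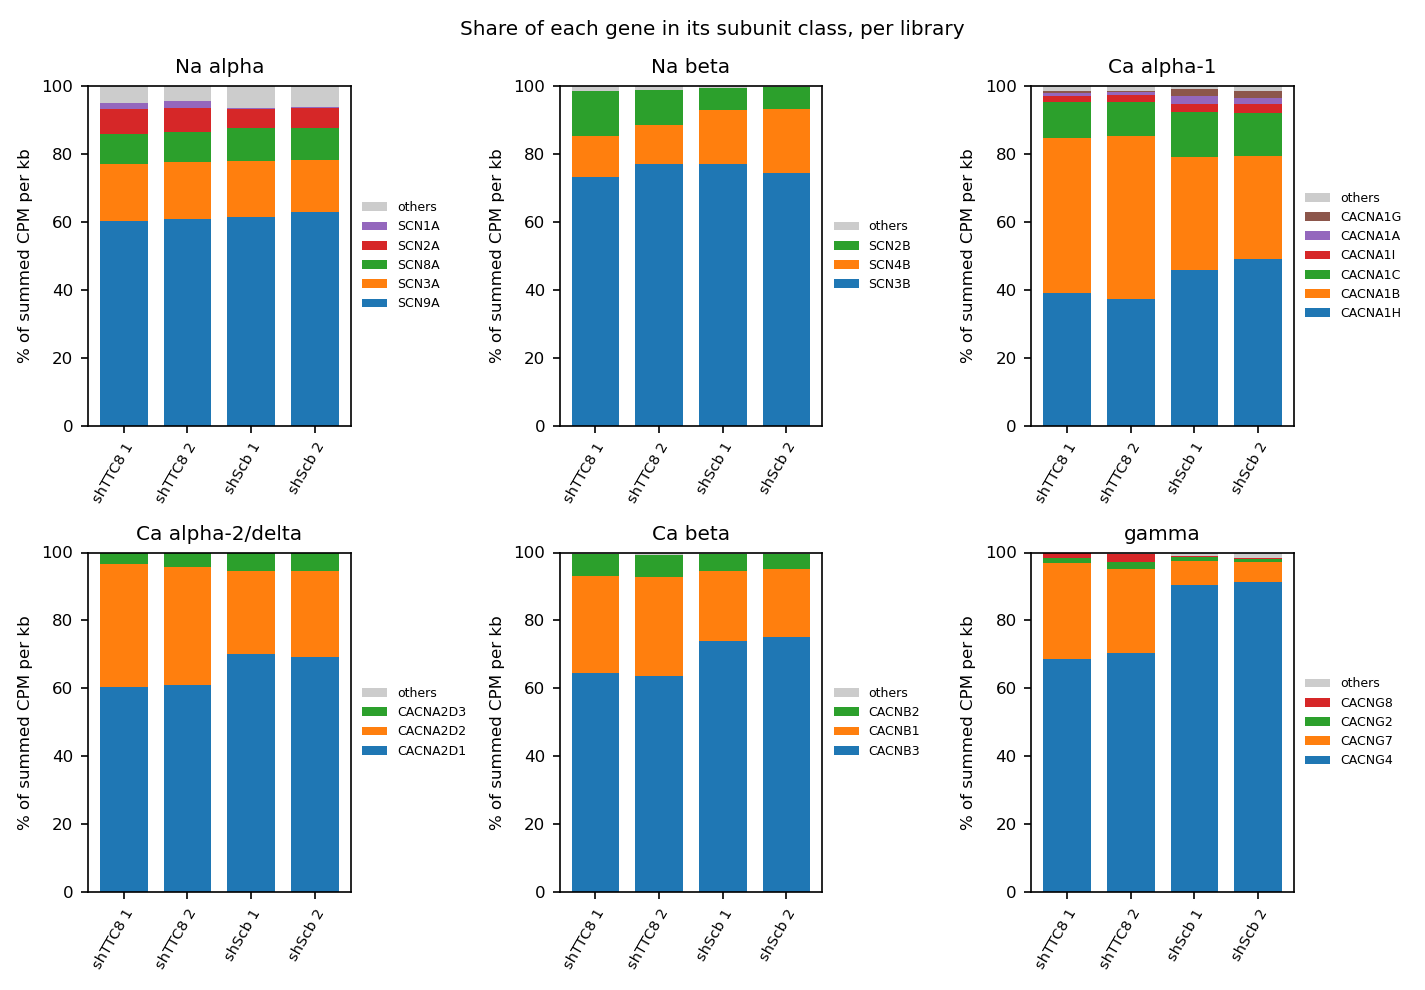
Share of each gene in the summed CPM per kilobase of its subunit class, in percent, with 1 stacked bar per library and the shTTC8 libraries at the left of each panel. Genes not named are pooled as others. CACNA1B is the larger band over CACNA1H in both shTTC8 bars (47.0% against 38.1% on average), and CACNG4 fills 91.0% of the gamma bars of shScb.

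Several channel genes lie side by side in the genome, and their directions are given with those of their neighbours. On chromosome 17, CACNG5, CACNG4 and CACNG1 lie in that order within 221681 bases. All had lower CPM in both shTTC8 libraries than in either shScb library, where 65.5% of all tested genes had groups that did not overlap. CACNG5 was below the filter, and CACNG1 had only 0 and 4 counts in shTTC8, against 21 and 30 in shScb. The protein-coding genes on either side were not called: PRKCA, a protein kinase C gene, had a log2 fold change of -0.08 (edgeR adjusted p = 0.397), and HELZ, a helicase gene, of -0.05 (0.682). On chromosome 19, CACNG7 and CACNG8 both rose, and CACNG6 beside them was at 0. VSTM1, the next gene beyond CACNG6, was below the filter.

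The chromosome 2 cluster holds SCN3A, SCN2A, SCN1A, SCN9A and SCN7A within 1406805 bases. All 5 had positive log2 fold changes, from 0.11 to 2.41, but only SCN2A and SCN1A were called. Between them CSRNP3, a gene for a nuclear protein, also rose (log2 fold change 0.79, edgeR adjusted p = 5.06e-06), TTC21B and GALNT3 were not called, and SLC38A11 outside the cluster fell (-0.46, edgeR adjusted p = 0.0163). These paralogs are alike in sequence. Of the 50-base stretches of the longest transcript, 2.11% in SCN1A, 3.85% in SCN2A, 5.55% in SCN3A and 3.70% in SCN9A also occur in another gene, mostly in one another.

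**Figure D4:**
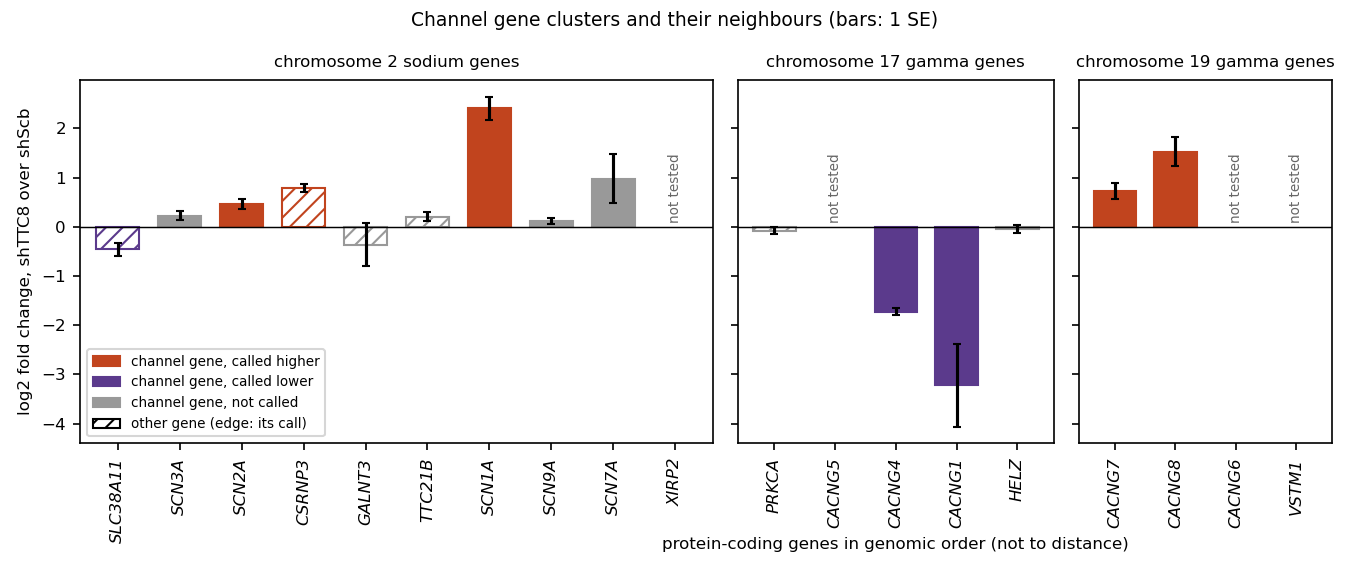
Log2 fold change of shTTC8 over shScb, with bars of 1 SE, for channel genes (filled) and neighbouring protein-coding genes (hatched) in genomic order on chromosomes 2, 17 and 19, not drawn to distance. CACNG4 and CACNG1 stand at -1.73 and -3.22 between PRKCA and HELZ, which lie at -0.08 and -0.05.

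Genes that work with these channels moved in both directions. Of 10 sodium channel partners, 8 were tested, 2 rose and 2 fell, beside 31.9% of all tested genes called, and the median log2 fold change was -0.08, against 0.00 over all tested genes. NFASC, which encodes the adhesion protein neurofascin of the axon initial segment, rose (log2 fold change 0.53 ± 0.12 SE, edgeR adjusted p = 0.00274), as did SPTBN4, its spectrin (0.64 ± 0.15 SE, edgeR adjusted p = 0.00394). ANK3, the ankyrin that holds sodium channels there, fell (-0.28 ± 0.07 SE, edgeR adjusted p = 0.00474), as did FGF14, an intracellular sodium channel modulator (-0.28 ± 0.09 SE, edgeR adjusted p = 0.0296).

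Of 17 calcium channel regulators, 16 were tested, 4 rose and 4 fell, again beside 31.9% of all tested genes, with a median of -0.15. RIMS1, a scaffold of the presynaptic release site, was sparse, at 37 and 32 counts in shTTC8, against 15 and 10 in shScb. Its level rose to 0.863 CPM in shTTC8, against 0.240 CPM in shScb (log2 fold change 1.84 ± 0.48 SE, edgeR adjusted p = 0.0091). RIMS2, a far more abundant relative, fell to 24.0 ± 0.295 CPM in shTTC8, against 45.2 ± 4.68 CPM in shScb (edgeR adjusted p = 2.89e-06). STAC, which encodes an adaptor of L-type channels, fell to 111 ± 1.20 CPM in shTTC8, against 192 ± 5.87 CPM in shScb (edgeR adjusted p = 1.98e-07), and GEM, a small GTPase that inhibits calcium channels, also fell (-0.55 ± 0.11 SE, edgeR adjusted p = 0.00103). STX1A, the syntaxin of the release machinery that binds N-type channels, rose (0.94 ± 0.09 SE, edgeR adjusted p = 1.87e-06), but it shares exonic bases with BUD23, which had 355% of its counts. CALM3, a calmodulin gene, rose too (0.60 ± 0.06 SE, edgeR adjusted p = 5.39e-06). Calmodulin genes have close copies, and no source used here says how reads shared between them were counted.

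Of 12 related pore genes, 9 were tested, 3 rose and 3 fell, with 31.9% called over all tested genes and a median of 0.11. Genes for partners of the sodium leak channel NALCN were called: NALF2 rose (log2 fold change 1.16 ± 0.11 SE, edgeR adjusted p = 2.63e-06), UNC79 rose (0.53 ± 0.11 SE, edgeR adjusted p = 0.00142), UNC80 rose (0.51 ± 0.11 SE, edgeR adjusted p = 0.00231) and NALF1 fell (-0.42 ± 0.07 SE, edgeR adjusted p = 2.21e-04). NALCN itself had 2 and 5 counts in shTTC8 and 0 in both shScb libraries. The lysosomal channel gene TPCN1 fell by 0.28 on the log2 scale (edgeR adjusted p = 0.0070), and the proton channel gene HVCN1 fell by 0.87 (edgeR adjusted p = 0.00753), though TCTN1, which overlaps its exons, had 632% of its counts.

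Of 21 genes for calcium stores and pumps, all were tested, 5 rose and 7 fell, where 31.9% of all tested genes were called, and the median was 0.04. These lists were chosen with results of this comparison known, and nothing is read from their shares. ITPR2, a receptor that releases calcium from the endoplasmic reticulum, fell (log2 fold change -1.20, edgeR adjusted p = 1.84e-07), as did ITPR3 (-1.37, edgeR adjusted p = 2.21e-05), whose exons overlap those of UQCC2 with 769% of its counts, and MCU, the mitochondrial calcium uniporter (-0.75, edgeR adjusted p = 2.21e-05). Their relative ITPR1 rose by less (0.20, edgeR adjusted p = 0.0216). ATP2B3, a plasma membrane calcium pump, rose (0.95, edgeR adjusted p = 2.97e-05), and ORAI2, a store-operated channel gene, rose (0.49, edgeR adjusted p = 2.35e-04) with an overlapping gene, ALKBH4, at 49.6% of its counts.

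Among regulators, REST is a repressor known to silence neuronal channel genes outside neurons. It had 300 and 284 counts in shTTC8, against 641 and 650 in shScb (log2 fold change -0.76 ± 0.13 SE, edgeR adjusted p = 3.99e-04). NOA1 had 987% of the counts of REST, and the shared exonic bases number 23, or 0.288% of the exon length of REST. RCOR1, a cofactor gene of REST, rose (0.31 ± 0.07 SE, edgeR adjusted p = 0.00359). MYCN, the oncogene amplified in this line, fell to 3766 ± 75.4 CPM in shTTC8, against 5738 ± 109 CPM in shScb (-0.61 ± 0.06 SE, edgeR adjusted p = 3.49e-06). Any part of these genes in the channel results was not tested.

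Markers of the labelled lineage were present: PHOX2A, which encodes a transcription factor of sympathetic neurons, was at 543 ± 20.7 CPM in shTTC8 and 775 ± 20.2 CPM in shScb. INPPL1, which overlaps 29 bases of its exons (1.63% of their length), had 24.5% of its counts. Over all tested genes 31.9% were called, 15.2% higher and 16.7% lower, and nothing is read from the counts of called markers that follow. Of 8 sympathetic markers, all tested, 1 rose and 5 fell, and their sums ran from 4154 to 4324 CPM in shTTC8, against 4868 to 4923 CPM in shScb. Of 8 fibroblast and endothelial markers, 6 were tested and all 6 fell, with sums of 199 to 206 CPM in shTTC8, against 440 to 457 CPM in shScb, and PECAM1 at 0. The 9 muscle markers, 3 of them tested and none called, summed to 25.2 to 25.8 CPM in shTTC8, against 24.5 to 29.9 CPM in shScb, nearly all of it TTN, with MYH6 at 0. TTN-AS1, which overlaps the exons of TTN, had 24.5% of its counts. Of 7 Schwann and glial markers, 5 were tested, none was called, and the sums were 6.09 to 6.98 CPM in shTTC8, against 5.70 to 6.51 CPM in shScb, with SOX10 at 0. Of 6 retinal and sensory markers, CRX and RCVRN were at 0, 3 were tested, 1 rose and 1 fell, with sums of 6.75 to 7.44 CPM in shTTC8, against 4.73 to 5.02 CPM in shScb. Of 6 epithelial and blood markers, CD3E was at 0, 5 were tested and 2 fell, with sums of 10.4 to 10.5 CPM in shTTC8, against 23.0 to 23.6 CPM in shScb. The part of these markers, of the depth gap between the groups and of GC content in the channel results was not tested. Across the 31 tested channel genes the rank correlation of transcript GC content with the log2 fold change was -0.35, against 0.23 over 14072 protein-coding genes, given as descriptions of genes that share these 4 libraries.

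**Figure D5:**
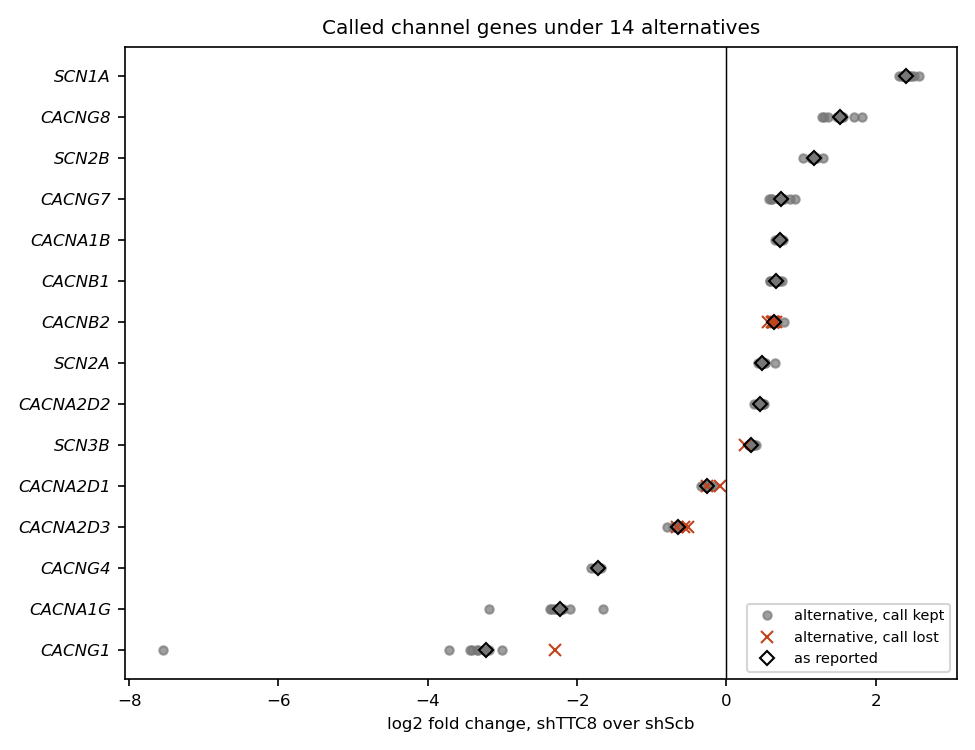
Log2 fold change of shTTC8 over shScb for 15 of the 16 called channel genes as reported (diamonds) and under the alternatives run (circles where the call was kept, crosses where it was lost). CACNG4 and SCN1A keep their calls throughout, and CACNB2 has the most crosses. For CACNG1 the lowest value comes from leaving out shTTC8 replicate 2, where the remaining shTTC8 library has 0 counts.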

How the data were processed

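Per the labels' protocols, TRIzol-extracted total RNA went into Illumina TruSeq RNA libraries. No source used here states strand-specific counting, so reads of overlapping antisense genes are treated as not told apart. The authors deposited raw counts, whole numbers for each Ensembl gene that were not normalized. The submitters' processing notes name HISAT2 2.2.0 and hg38. No source used here gives the read counter, its handling of shared reads or its annotation. Groups were taken from the sample titles.

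Symbols came from the name table for 56105 of the 64252 gene IDs and from GENCODE for another 486. The channel genes and the gene lists were chosen with earlier results of these data known. The test was run with edgeR 4.0.16 in R 4.3.3: filterByExpr with default settings, TMM scaling and the robust quasi-likelihood F test, two-sided. P-values were adjusted by Benjamini and Hochberg's method over every tested gene. SE is the log2 fold change divided by the root of F, and each CPM error is the SD of 2 libraries. The biological coefficient of variation was 10.5%, and for genes of few counts counting error comes on top of it. Fold values for genes at 0 in a group allow for counting error in that group only. The scripts were tested on simulated data. Channel genes were given by name apart from a few that are not reported here, and of each list up to 3 called genes per direction with the smallest p were named. Overlapping genes were marked from 10% of a gene's own counts (GENCODE 29). The percentage takes all counts of the overlapping gene, not only those in the shared bases. Alternatives were DESeq2 1.42.0, limma-voom (limma 3.58.1), a non-robust fit, scaling by RLE or by total alone, a filter of 1 CPM in 2 libraries or none, a replicate block, each library left out, thinning to the smallest total, and an offset for GC content and length.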

Additional observations from a re-analysis of the deposited data

How the results depend on the processing

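Of the 16 called channel genes, 10 kept their call under every alternative that gave an adjusted p, and 29 of the 31 tested kept their sign. DESeq2 gave no adjusted p for 7 sparse channel genes. CACNA1G and CACNG1 were among them, with DESeq2 log2 fold changes of -2.25 and -3.31. Those whose sign turned, both without shScb replicate 2, were CACNB3, with log2 fold changes of -0.17 to 0.070 when 1 library was left out, and SCN11A, with -0.095 to 0.87. Neither was called. Channel genes called lower numbered 5 as reported, 2 with DESeq2 and 3 to 5 with 1 library left out. Channel genes called higher numbered 8 to 11 with 1 library left out, and 13 with the GC and length offset. Over all genes, 2974 were called higher as reported, 1917 at an adjusted p under 0.01, and 1880 to 3395 with 1 library left out. With 1 library left out, the called genes ranged from 2 to 4 for sodium channel partners (lowest without shTTC8 replicate 1), 5 to 9 for calcium channel regulators (lowest without shTTC8 replicate 1), and 6 to 11 for calcium stores and pumps (lowest without shTTC8 replicate 2). Calcium stores and pumps had 6 called at an adjusted p under 0.01. Apart from the adjusted p-values that DESeq2 did not give, the cause of these shifts was not tested. The deviations of same-numbered replicates from their group means had a correlation of 0.03 across groups. With 2 libraries per group this cannot decide whether same-numbered libraries were made together. A replicate block gave 11 channel genes higher and 6 lower, and 3092 higher and 3343 lower over all genes. With 1 library left in an arm, it was assumed to vary like the other group. The 9 untested channel genes had at most 15 counts in a library, and 3 of them had 0 in all 4, so no difference was testable for those 3. With no filter 37 channel genes were tested, and none of the genes added in this way was called.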
